A study of Homo sapiens with 18 samples.

Results

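The insulin-like growth factor (IGF) axis was read in human osteosarcoma cells through 10 genes: the ligands IGF1 and IGF2, the receptors IGF1R and IGF2R, and the binding proteins IGFBP2 to IGFBP7. The members are the array's probe sets annotated to exactly 1 of these genes, a rule that uses no measured value. The genes themselves were chosen with earlier results of these data known. A probe set is a group of short probes for a transcript whose signals are summarised into 1 value. Of 54675 probe sets on the array, 41097 name a single gene, and 27 of those are members. They cover 9 of the 10 genes, because the 3 probe sets of IGF2 also name a neighbouring readthrough gene, INS-IGF2, and no value is given for IGF2. Of the 27, 20 passed a filter on low signal (at least 5.36 on the log2 scale, the median of the table, on 3 or more of the 18 arrays) and were tested, at least 1 for each of the 9 genes. IGF1 and IGFBP6 lie on chromosome 12, IGF2 on 11, IGF1R on 15, IGF2R on 6, IGFBP2 and IGFBP5 on 2, IGFBP3 on 7, IGFBP4 on 17 and IGFBP7 on 4, per RefSeq on GRCh38.p14.

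IGF1 and IGF2 are secreted growth factors that activate IGF1R, a receptor tyrosine kinase, which passes the signal through the insulin receptor substrates to PI3K, AKT and mTOR. IGF2R, also the receptor for mannose 6-phosphate tags on lysosomal enzymes, takes up IGF2 and has no kinase. The IGF binding proteins hold the ligands outside the cell, lengthen their life and either restrain or deliver them, and proteases release the ligand again. Growth hormone stimulates cells to make IGF1, osteoblasts make IGFs and store them in bone matrix, and IGF1 is a growth and survival factor for cells of the osteoblast lineage.

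The cells were MNNG/HOS (MNNG below) and 143B, established human osteosarcoma lines that both descend from the HOS line, so the lines share a single origin. The labels describe the tumor cells as transduced with ZsGreen, a green fluorescent protein, in all groups. Cells stained with PKH26, a membrane dye that thins out with each division, were grown as orthotopic tumors in the bone of a host that the labels do not name, and dye-retaining cells (High, 150000 sorted) were separated from dye-poor cells (Low, 700000 sorted). The submitters call the High cells tumor-initiating cells. The groups were MNNG_High and MNNG_Low (4 tumors each: MNNG-1231, MNNG-1232, MNNG-1233, MNNG-1235), 143B_Low (5 tumors: 143B-1251 to 143B-1255), 143B_High (3 arrays: tumor 143B-1253 and the pools 143B-51&52 and 143B-54&55) and MNNG_Lung (2 arrays of lung metastases: 1 numbered MNNG-1233 and a mixture labelled Mix). No drug treatment and no animal age appear among the labels, which also leave unsaid if the cells from lung were sorted.

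Arrays of a group correlated at r = 0.956 or more over all probe sets, except the pair of lung arrays at 0.865. The interquartile range of an array's log2 signal was lowest on the lung pair (2.09 and 2.28), next lowest in MNNG_High (2.76 to 3.18), and between 3.26 and 3.48 on the remaining arrays. Sample descriptions end in a date tag whose step is not named. All 143B arrays carry a tag of their own, so line and tag cannot be told apart, and the MNNG_High and lung arrays share theirs with only 1 MNNG_Low array, that of tumor MNNG-1231. Of 12 osteosarcoma and mesenchymal markers on the array, 2 lay under 5.36 on every array of each sorted group. VIM (vimentin) was at 14.5 to 14.6 in each sorted group mean, while the osteoblast genes ALPL and IBSP were at 3.96 to 4.65, and the bone matrix gene SPP1 was at 4.72 and 5.39 in the MNNG groups against 8.44 and 7.88 in the 143B groups. In the lung arrays VIM was at 14.3, while the adhesion receptor CD44 was at 5.49 against 10.9 in MNNG_High and the bone matrix protein SPARC at 7.00 against 12.3, and in the lung 5 of 10 tested markers of this list were lower than in either MNNG group. Each group is a bulk sample, in which fewer cells of a type and less RNA per cell cannot be told apart. The array is made for human transcripts, and whether a marker's signal came from tumor or host RNA was not tested.

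The sequences upstream of IGF1 are shown because IGF1 carries the main difference described here, with those of IGF1R and IGFBP6 as a receptor and a binding protein that differed between the lines. Each is the 250 bases before an annotated transcription start, 5′ to 3′ in the sense of the gene, from RefSeq on GRCh38.p14. Capitals mark matches on either strand to GGGCGG, the core of a GC box. A TATA box, searched for as TATAAA on either strand, is in none of them, and no match of the searched letters overlaps another.
IGF1, start a (minus strand, chr12:102478551-102478800): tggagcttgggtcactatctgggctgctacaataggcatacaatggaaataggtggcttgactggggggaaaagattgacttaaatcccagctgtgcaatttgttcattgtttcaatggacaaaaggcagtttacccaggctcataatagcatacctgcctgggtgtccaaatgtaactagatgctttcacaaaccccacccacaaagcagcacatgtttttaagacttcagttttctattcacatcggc
IGF1, start b (minus strand, chr12:102481748-102481997): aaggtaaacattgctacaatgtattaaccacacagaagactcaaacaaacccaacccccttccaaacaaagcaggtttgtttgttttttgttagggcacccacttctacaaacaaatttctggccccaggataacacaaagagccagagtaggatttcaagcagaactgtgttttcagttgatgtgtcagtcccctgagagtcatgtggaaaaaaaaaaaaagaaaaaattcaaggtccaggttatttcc
IGF1R (plus strand, chr15:98648289-98648538): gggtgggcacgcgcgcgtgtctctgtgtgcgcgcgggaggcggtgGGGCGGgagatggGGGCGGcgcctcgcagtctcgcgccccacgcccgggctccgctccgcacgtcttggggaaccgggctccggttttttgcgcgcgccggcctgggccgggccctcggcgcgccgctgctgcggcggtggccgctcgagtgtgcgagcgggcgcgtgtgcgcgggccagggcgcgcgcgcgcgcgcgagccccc
IGFBP6 (plus strand, chr12:53097417-53097666): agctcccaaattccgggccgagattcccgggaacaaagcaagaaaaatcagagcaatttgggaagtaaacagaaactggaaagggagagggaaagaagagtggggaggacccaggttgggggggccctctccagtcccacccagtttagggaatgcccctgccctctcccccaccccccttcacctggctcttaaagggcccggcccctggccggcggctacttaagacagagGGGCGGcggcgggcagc

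Neither IGF1 window holds a GC box, and their GC contents are 44.0% and 39.6%. The IGF1R window has 2 GC boxes and a GC content of 81.2%, and the IGFBP6 window has 1 GC box and 61.2%. Over 35116 RefSeq windows of the same 250 bases, 42.6% hold a GC box and 10.7% a TATA box. A match is a run of letters and does not show that a factor binds there.

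The comparison of High with Low cells asks how dye-retaining cells differ from the bulk of the same tumors. In MNNG tumors, IGF1, the ligand, was 4.14-fold higher in High than in Low cells on its brightest probe set. IGF1R, its receptor, was lower on 1 of its 4 tested probe sets. No binding protein passed the test. A member gene was counted by its brightest probe set, and 1 of the 9 was called at an adjusted p under 0.05, against 25.5% of all genes, with 10.4% of all genes called higher and 15.1% lower.

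**Figure D1:**
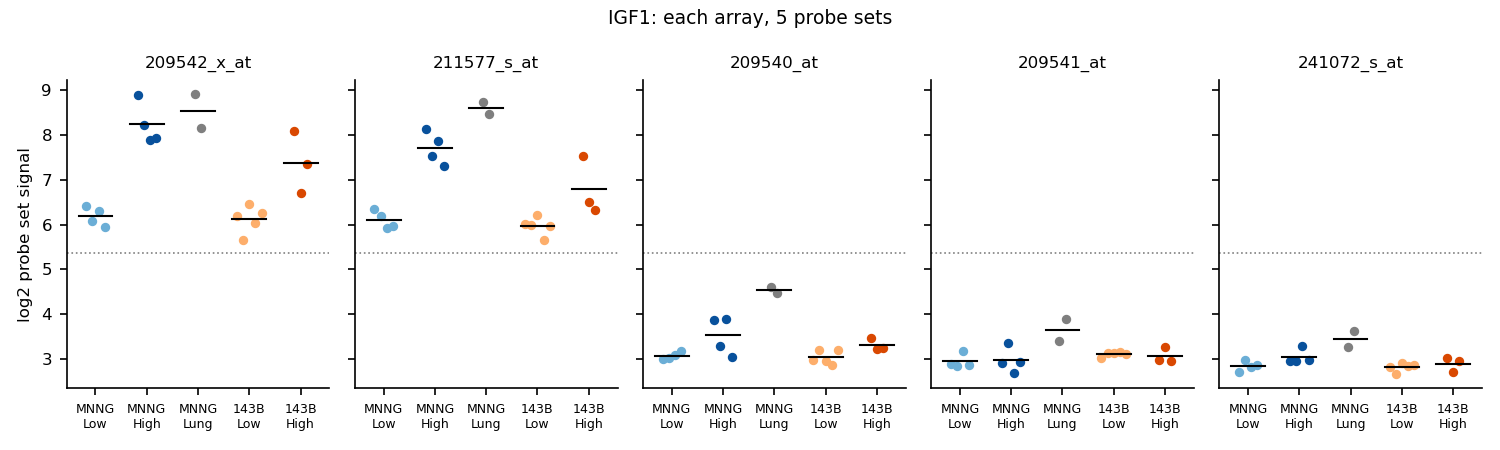
Log2 signal of the 5 IGF1 probe sets on each of the 18 arrays, by group, with 1 point per array, a line at each group mean and the low-signal filter of 5.36 dotted. On 209542_x_at all 4 MNNG_High arrays lie between 7.89 and 8.89 and all 4 MNNG_Low arrays between 5.95 and 6.42, while the 3 probe sets on the right stay below the filter throughout.

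For IGF1, probe set 209542_x_at read 8.89, 8.23, 7.89 and 7.94 in the High cells of tumors MNNG-1231, MNNG-1232, MNNG-1233, MNNG-1235. The Low cells of the same tumors read 6.42, 6.09, 6.30 and 5.95. Every High array lay above every Low array, with means of 8.24 ± 0.46 (SD, n = 4) and 6.19 ± 0.21 (SD, n = 4). The log2 difference was 2.05 ± 0.27 (SE, adjusted p = 0.000487), and within single tumors it ran from 1.60 in MNNG-1233 to 2.47 in MNNG-1231.

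A further IGF1 probe set, 211577_s_at, moved the same way. Its High arrays read 8.13, 7.52, 7.87 and 7.31 and its Low arrays 6.35, 6.18, 5.92 and 5.97 in the same tumor order, again without overlap. The difference was 1.60 ± 0.23 (SE, adjusted p = 0.000782). The remaining IGF1 probe sets, 209540_at, 209541_at and 241072_s_at, stayed between 2.66 and 4.61 on all arrays and were not tested. Both tested ones carry the suffixes that the manufacturer gives to probe sets able to match more than a single transcript.

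The IGF1 difference kept its direction but lost its call when the date tag was a covariate (1.82, adjusted p = 0.148), among arrays of the shared tag alone (1.82, adjusted p = 0.940, resting on a single Low array) and with the array's interquartile range as a covariate (1.54, adjusted p = 0.172). Only 6 probe sets of the whole array were called with the date tag in the fit and also 6 with the interquartile range.

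Some macrophage markers moved with IGF1. Of 15 listed, 14 were on the array and 7 were tested, and 4 of the 7 were higher in MNNG_High and 0 lower. Over all genes 10.4% were called higher and 15.1% lower. The macrophage gene AIF1 was higher by 2.34 ± 0.27, SPI1, a myeloid transcription factor, by 1.65 ± 0.28, the Fc receptor subunit FCER1G by 0.88 ± 0.18 and the complement protein C1QA by 0.62 ± 0.15, all as log2 differences ± SE. CD14 read 5.55 in MNNG_High and 5.46 in MNNG_Low, and CSF1R, the receptor for macrophage colony-stimulating factor, 5.86 and 5.59. The summed linear signal of the 14 ran from 1040 to 1963 on MNNG_High arrays and from 508 to 630 on MNNG_Low arrays, and 7 of the 14 lay under 5.36 on every MNNG_High array. Some markers of other cell types also moved, with 3 of 4 tested neutrophil genes, 3 of 6 of skeletal muscle, 2 of 5 erythroid, 2 of 8 of lung epithelium, 1 of 4 of endothelium, 1 of 4 of osteoclasts, 1 of 6 of fibroblasts and 0 of 3 of lymphocytes called higher and 0 of any of these lists lower. In the same order 10, 11, 5, 10, 9, 6, 7 and 6 genes of these lists were on the array. The filter draws on all groups, so a marker could pass it through the groups where it is high. Of the 10 neutrophil genes, 8 lay under 5.36 on every MNNG_Low array and 5 on every MNNG_High array. The part of these cell types in the IGF1 difference was not tested.

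IGF1R, on its brightest probe set 225330_at, read 9.01, 8.89, 9.28 and 9.52 in MNNG_High and 9.35, 9.56, 10.02 and 9.36 in MNNG_Low (tumors MNNG-1231, MNNG-1232, MNNG-1233, MNNG-1235). The groups overlapped, with 3 of 4 tumors lower in High and tumor MNNG-1235 higher. The log2 difference was -0.40 ± 0.17 (SE, adjusted p = 0.0807). It was called in a fit without the lung arrays and with tumor as a block, which compares the 2 fractions within each tumor (adjusted p = 0.0313), and not without the lung arrays alone (adjusted p = 0.0585). Probe set 203627_at was lower in High in all 4 tumors, with 6.66, 7.32, 7.12 and 6.96 against 7.53, 7.81, 8.26 and 7.21, a difference of -0.69 ± 0.20 (SE, adjusted p = 0.0225). It was not called after a second quantile normalization (-0.43, adjusted p = 0.188), with only the groups compared in the fit (adjusted p = 0.0597) or with the GAPDH 3′ to 5′ signal as a covariate (adjusted p = 0.0533). 203628_at and 208441_at differed by -0.30 ± 0.21 and 0.20 ± 0.17 and were not called.

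IGF2R read 9.58, 9.88, 9.39 and 10.19 in MNNG_High and 9.98, 10.11, 10.16 and 10.17 in MNNG_Low on 201393_s_at. High was below Low in tumors MNNG-1231, MNNG-1232 and MNNG-1233, and the 2 were nearly equal in tumor MNNG-1235, which differed by 0.02. The difference was -0.35 ± 0.16 (SE, adjusted p = 0.114), and it was called with the tumor block and no lung arrays (adjusted p = 0.0380), but not without the lung arrays alone (adjusted p = 0.0556). On 201392_s_at it was -0.12 ± 0.17 and not called.

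**Figure D2:**
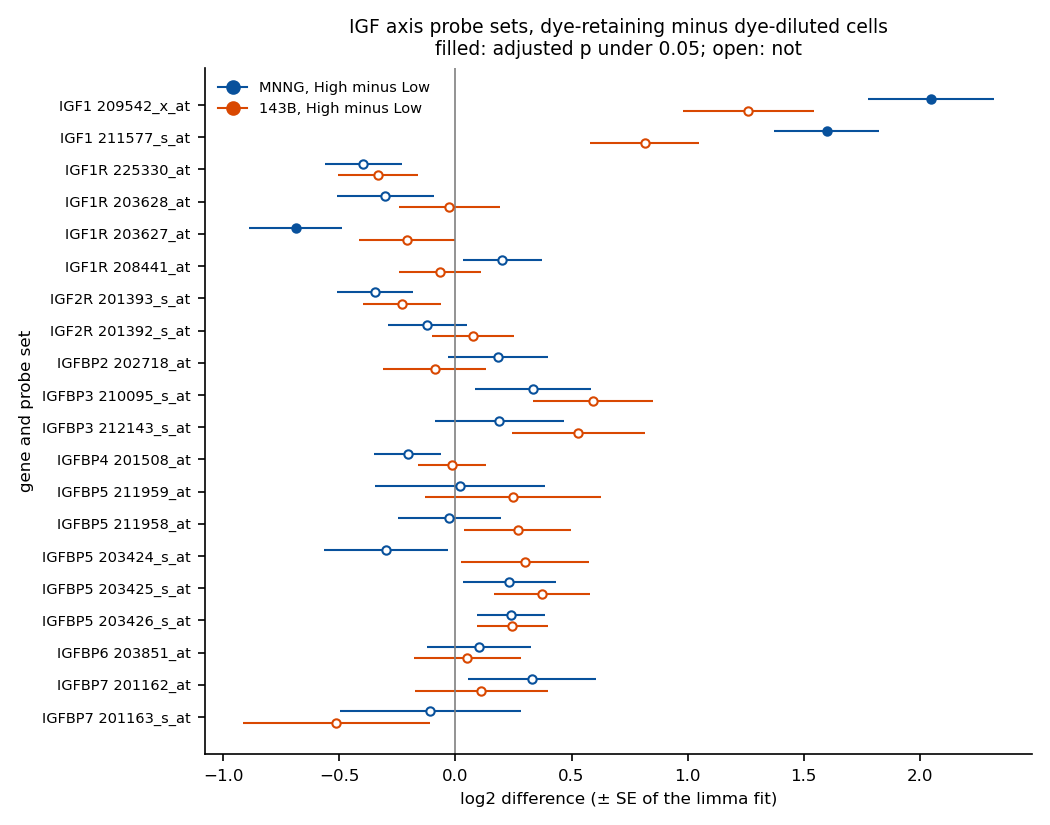
Log2 difference between High and Low cells, with the standard error of the fit, for the 20 tested probe sets in MNNG (blue) and 143B (orange), where filled points have an adjusted p under 0.05. The 2 IGF1 probe sets stand farthest to the right in both lines, at 2.05 and 1.60 in MNNG and 1.26 and 0.82 in 143B, and of these only the MNNG points are filled.

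Among the binding proteins, IGFBP7, a secreted protein of low IGF affinity, was slightly higher in the High cells of every MNNG tumor, by 0.38, 0.32, 0.36 and 0.26 in tumors MNNG-1231, MNNG-1232, MNNG-1233, MNNG-1235 on 201162_at. The spread between tumors was wider than that shift. High cells read 10.23, 10.12, 11.06 and 9.67 and Low cells 9.86, 9.80, 10.70 and 9.42, so tumor MNNG-1233 was the highest and tumor MNNG-1235 the lowest in both fractions. The difference of 0.33 ± 0.28 (SE, adjusted p = 0.355) was called with the tumor block and no lung arrays (adjusted p = 0.0323), but not without the lung arrays alone (adjusted p = 0.310). Probe set 201163_s_at of the same gene gave -0.11 ± 0.39.

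IGFBP5, a binding protein that is abundant in bone matrix, varied more between tumors than between fractions. On 211959_at High cells read 9.74, 10.56, 10.74 and 11.72 and Low cells 10.06, 10.74, 10.59 and 11.30 in tumors MNNG-1231, MNNG-1232, MNNG-1233, MNNG-1235. Tumor MNNG-1231 was the lowest and tumor MNNG-1235 the highest in both fractions. Its difference was 0.02 ± 0.37 (SE, adjusted p = 0.970). IGFBP3, the main carrier of IGFs in blood, differed by 0.33 ± 0.25, IGFBP2 by 0.18 ± 0.22, IGFBP6, which prefers IGF2, by 0.10 ± 0.22, and IGFBP4, an inhibitor of IGF action, by -0.21 ± 0.14, none of them called. The median difference of the 20 member probe sets was 0.06 against -0.19 over all tested probe sets. That shift of all probe sets was -0.03 after a second quantile normalization and -0.31 after centring each array on its median.

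In 143B tumors no member gene was called between High and Low cells. Only 0.00694% of all genes were called in this comparison by limma, and 2 of the 9 members had an unadjusted p under 0.05, with 1498 of 26556 probe sets below it. IGF1 read 8.08 in tumor 143B-1253, 6.71 in the pool 143B-51&52 and 7.34 in the pool 143B-54&55 for High cells on 209542_x_at. Low cells read 6.18, 5.66, 6.45, 6.03 and 6.26 in tumors 143B-1251 to 143B-1255. The 3 High arrays lay above all 5 Low arrays, the pool 143B-51&52 by the smallest margin.

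The IGF1 difference in 143B was 1.26 ± 0.28 (SE, adjusted p = 0.309), a 2.40-fold difference with a 95% interval of 0.67 to 1.85 on the log2 scale. With tumor as a block and no lung arrays it was 1.17 and was called (adjusted p = 0.0476), without the lung arrays alone its adjusted p was 0.207, and with arrays weighted by their quality it was 1.20 (adjusted p = 0.0158). On 211577_s_at the High arrays read 7.53, 6.49 and 6.33 and the Low arrays between 5.66 and 6.21, a difference of 0.82 ± 0.23 (SE, adjusted p = 0.535), which was not called with the block either (adjusted p = 0.116). Of the 7 tested macrophage markers limma called none in 143B, and 3 of the 7 had an unadjusted p under 0.05. AIF1 differed by 1.24 ± 0.28 (adjusted p = 0.309). The summed signal of the list ran from 646 to 914 in 143B_High and from 455 to 551 in 143B_Low.

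The other member whose unadjusted p was under 0.05 in 143B was IGFBP3. On 210095_s_at its High arrays read 11.19, 10.65 and 10.65 and its Low arrays 10.25, 9.87, 10.96, 10.04 and 10.08, so that Low tumor 143B-1253 lay inside the High range and tumor 143B-1253 was the highest in both fractions. The difference was 0.59 ± 0.26 (SE, adjusted p = 0.838). IGF1R and IGF2R were not called on any probe set. On their brightest probe sets they gave -0.34 and -0.23, each with a negative difference in all 3 tumor sets. Probe set 203628_at of IGF1R gave -0.03, and 201392_s_at of IGF2R gave 0.08, with a positive difference in all 3 tumor sets. The remaining binding proteins differed by -0.09 for IGFBP2, -0.01 for IGFBP4, 0.25 for IGFBP5, 0.05 for IGFBP6 and 0.11 for IGFBP7.

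Whether the High against Low difference itself differed between the lines was tested as the 143B difference minus the MNNG difference. No member was called, and limma called 0.00694% of all genes. IGF1 gave -0.79 ± 0.39 (SE, adjusted p = 0.513) on 209542_x_at with a 95% interval of -1.61 to 0.03, and -0.78 ± 0.33 (SE, adjusted p = 0.497) on 211577_s_at. The larger IGF1 difference in MNNG than in 143B was therefore not past the threshold. No member had an unadjusted p under 0.05 on its brightest probe set, and 2602 of 26556 probe sets did.

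**Figure D3:**
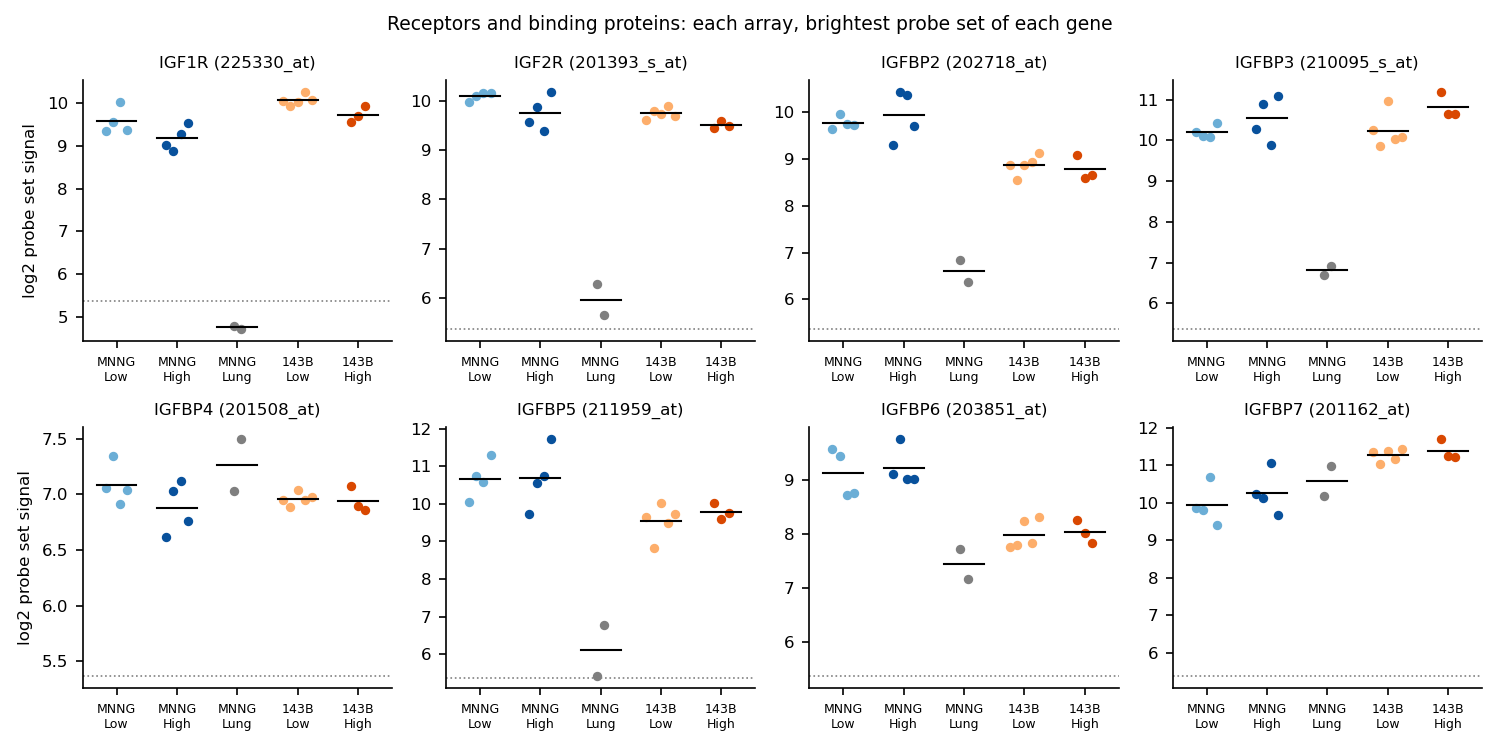
Log2 signal of the brightest probe set of IGF1R, IGF2R and IGFBP2 to IGFBP7 on each array, with 1 point per array and a line at each group mean; each panel has its own vertical scale, and the low-signal filter of 5.36 is dotted. The lung arrays of IGF1R sit at 4.80 and 4.71, below the filter, while those of IGFBP4 and IGFBP7 sit within or above the range of the bone tumors of MNNG.

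The lines were compared within each fraction, 143B against MNNG, to see how the axis differs between tumors of the 2 lines. In Low cells 5 of 9 member genes were called, against 28.2% of all genes. IGF1R and IGFBP7 were higher in 143B, and IGFBP2, IGFBP5 and IGFBP6 were lower. In High cells 5 of 9 were also called, against 34.7% of all genes, with IGF1R and IGFBP7 again higher and IGFBP2, IGFBP6 and IGF1 lower. In Low cells 14.1% of all genes were called in each direction, and in High cells 20.8% higher and 13.9% lower. Every 143B array carries another date tag than every MNNG array, so tag and line cannot be told apart in any of these differences.

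IGF1 did not differ beyond its spread between the Low cells of the lines, 6.12 ± 0.30 (SD, n = 5) in 143B and 6.19 ± 0.21 (SD, n = 4) in MNNG, a difference of -0.07 with a 95% interval of -0.61 to 0.47. In High cells it was lower in 143B, a log2 difference of -0.86 ± 0.29 (SE, adjusted p = 0.0320), with the 143B array of tumor 143B-1253 (8.08) inside the MNNG range. The call was lost when only the groups compared were fitted (adjusted p = 0.0862), with the GAPDH 3′ to 5′ signal as a covariate (adjusted p = 0.0618), with the interquartile range as a covariate (-0.42), and without MNNG-1231 High, MNNG-1232 High or either of the pooled 143B_High arrays, where it ran from -0.52 without the pool 143B-51&52 to -0.86. Markers of other cell types were mixed in 143B_High. Called lower were 4 of 7 tested macrophage genes, 2 of 4 of neutrophils, 4 of 6 of skeletal muscle and 2 of 5 erythroid, and 0 of these lists higher. Of lung epithelium 1 of 8 was lower and 1 higher, and of osteoclasts 1 of 4 was lower and 2 higher. For endothelium 1 of 4 and for fibroblasts 1 of 6 were higher, and 0 of these lower. Of lymphocyte genes 0 of 3 were called. Over all genes 20.8% were called higher and 13.9% lower between the lines in High cells. As above, the counts cover only the markers that passed the filter. AIF1 differed by -1.28 ± 0.29 (adjusted p = 0.00264), and the summed macrophage signal was 646 to 914 in 143B_High against 1040 to 1963 in MNNG_High. The part of these cell types in the result was not tested.

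IGF1R was higher in 143B. On 225330_at the Low arrays of 143B read 10.03, 9.92, 10.02, 10.26 and 10.06, against 9.35, 9.56, 10.02 and 9.36 in MNNG. Only tumor MNNG-1233 reached the 143B values. The difference was 0.49 ± 0.16 (SE, adjusted p = 0.0271) in Low and 0.55 ± 0.18 (SE, adjusted p = 0.0262) in High cells, where the groups did not overlap. 203627_at gave the larger differences of 1.03 ± 0.19 (SE, adjusted p = 0.000394) and 1.51 ± 0.22 (SE, adjusted p = 3.8e-05), and 203628_at gave 0.49 and 0.76, of which the High value was called. The fourth tested probe set, 208441_at, ran the other way at -0.48 and -0.74, both called. Its 143B arrays lay at 4.37 to 4.97 and its MNNG_Low arrays at 4.97 to 5.12, all under the filter, and only 1 of the 4 MNNG_High arrays reached it. Of 6909 genes with 2 or more tested probe sets, 0.333% were called in both directions in Low cells and 1.72% in High cells. So was IGF1R, as 1 of the 6 member genes with 2 or more, but its lower call is that of 208441_at, at signals mostly under the filter.

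The IGF1R call on 225330_at did not hold in Low cells without MNNG-1231 Low, MNNG-1232 Low or MNNG-1235 Low or without 143B-1254 Low (0.41 to 0.48), nor in High cells without MNNG-1231 High or MNNG-1232 High or either pooled 143B_High array (0.45 to 0.56). Nor did it hold in Low cells with the GAPDH covariate (adjusted p = 0.0917), or in High cells with only the groups compared (adjusted p = 0.0657), with the interquartile range as a covariate (0.36) or after a second quantile normalization (0.33, adjusted p = 0.196).

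IGF2R was lower in 143B_Low on 201392_s_at, by -0.58 ± 0.16 (SE, adjusted p = 0.0108), with no overlap. On its brightest probe set, 201393_s_at, the Low arrays of 143B ran from 9.62 to 9.89 and those of MNNG from 9.98 to 10.17, also without overlap, and the difference was -0.35 ± 0.15 (SE, adjusted p = 0.102). In High cells the lines overlapped on both probe sets and neither was called. The differences there were -0.39 ± 0.18 (SE, adjusted p = 0.113) on 201392_s_at and -0.24 ± 0.18 (SE, adjusted p = 0.298) on 201393_s_at.

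**Figure D4:**
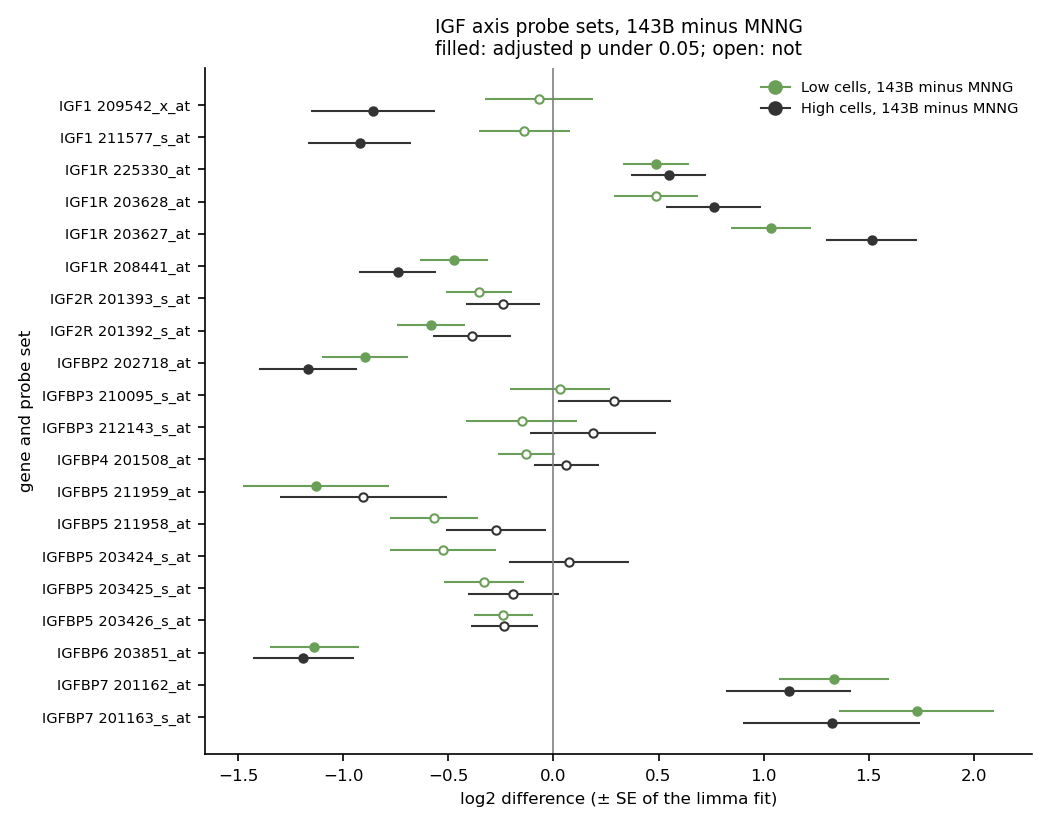
Log2 difference between 143B and MNNG, with the standard error of the fit, for the 20 tested probe sets in Low cells (green) and High cells (black), where filled points have an adjusted p under 0.05. IGFBP7 lies to the right at 1.34 and 1.12 on 201162_at, IGFBP6 to the left at -1.14 and -1.19, and the IGF1 points separate by fraction, at -0.07 in Low and -0.86 in High cells on 209542_x_at.

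Among the brightest probe sets, IGFBP7 had the largest difference between lines in Low cells. On 201162_at 143B_Low read 11.35, 11.05, 11.39, 11.16 and 11.45 and 143B_High read 11.70, 11.25 and 11.22. All 8 lay above every MNNG bone tumor array, except that the High array of tumor MNNG-1233, at 11.06, slightly passed the lowest Low array of 143B. IGFBP7 was higher in 143B by 1.34 ± 0.26 (SE, adjusted p = 0.000728) in Low and 1.12 ± 0.30 (SE, adjusted p = 0.00821) in High cells, or 2.52-fold and 2.17-fold. 201163_s_at gave 1.73 ± 0.37 and 1.32 ± 0.42, both called.

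IGFBP2, a binding protein made by many embryonic and tumor tissues, was lower in 143B. Its Low arrays read 8.87, 8.55, 8.88, 8.93 and 9.14 in 143B and 9.64, 9.96, 9.76 and 9.72 in MNNG. Its High arrays read 9.09, 8.60 and 8.66 in 143B and 9.30, 10.44, 10.36 and 9.71 in MNNG. Neither fraction overlapped between lines, and the differences were -0.90 ± 0.21 (SE, adjusted p = 0.00265) and -1.17 ± 0.23 (SE, adjusted p = 0.000964).

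IGFBP6 was likewise lower in 143B without overlap. It read 7.75, 7.80, 8.24, 7.84 and 8.32 in 143B_Low against 9.58, 9.44, 8.73 and 8.77 in MNNG_Low, and 8.26, 8.03 and 7.84 in 143B_High against 9.12, 9.76, 9.02 and 9.03 in MNNG_High. The differences were -1.14 ± 0.21 (SE, adjusted p = 0.000452) and -1.19 ± 0.24 (SE, adjusted p = 0.00112). The calls of IGFBP2, IGFBP6 and IGFBP7 held in both fractions when any single array was left out.

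IGFBP5, which lies next to IGFBP2 on chromosome 2 with 0 protein-coding genes between them, was lower in 143B_Low on 211959_at. 143B_Low read 9.64, 8.82, 10.01, 9.50 and 9.73 and MNNG_Low 10.06, 10.74, 10.59 and 11.30, which came close but did not overlap. The difference was -1.13 ± 0.35 (SE, adjusted p = 0.0205), and it was not called without MNNG-1235 Low (-0.92), without 143B-1252 Low (-0.95) or after a second quantile normalization (adjusted p = 0.0583). In High cells it was -0.90 ± 0.40 (SE, adjusted p = 0.0856), and the other 4 tested IGFBP5 probe sets were called in neither fraction. IGFBP3 differed by 0.03 ± 0.24 and 0.29 ± 0.27 and IGFBP4 by -0.13 ± 0.14 and 0.06 ± 0.15, none called.

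Lung arrays differed from the bone tumors of MNNG in most genes of the array, with 86.8% of all genes called against MNNG_Low (35% higher and 51.8% lower) and 82% against MNNG_High (34.6% higher and 47.4% lower). Against MNNG_Low, 7 of 9 member genes were called on their brightest probe sets, with IGF1 higher and IGF1R, IGF2R, IGFBP2, IGFBP3, IGFBP5 and IGFBP6 lower. Against MNNG_High, 6 were called, all lower. The member median was -2.11 against -0.49 over all tested probe sets in the former comparison and -1.83 against -0.22 in the latter. The 2 lung arrays had a narrower signal spread, as given above, and raised levels of markers of other cell types. Of 8 tested genes of lung epithelium 7 were higher than in MNNG_Low, as were 4 of 4 of endothelium, 4 of 4 of neutrophils, 5 of 5 erythroid and 5 of 6 of skeletal muscle. Of 4 osteoclast genes 3 were higher and 1 lower, and 3 of 6 of fibroblasts and 2 of 3 of lymphocytes were higher. These counts cover tested markers only, and a marker could pass the filter partly through the lung arrays. All 7 tested macrophage markers were higher than in MNNG_Low, with a summed signal of 2346 to 2565 for the list, and 0 of its 14 genes lay under 5.36 on both lung arrays. Whether these marker signals came from tumor or host RNA was not tested, nor was the part of the spread or of these cells in the member differences.

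IGF1 read 8.91 in lung array MNNG-1233 and 8.15 in Mix on 209542_x_at, and 8.73 and 8.46 on 211577_s_at. Both arrays lay above all MNNG_Low arrays, by a mean of 2.34 ± 0.33 (SE, adjusted p = 2.72e-06) on the former. Against MNNG_High the former differed by 0.29 ± 0.33 (SE, adjusted p = 0.427), within the range of the High arrays but for lung array MNNG-1233, and the latter by 0.89 ± 0.28 (SE, adjusted p = 0.00723). After a second quantile normalization the first of these was 1.66 and was called. The order of the IGF1 group means on 209542_x_at was MNNG_Lung (8.53), MNNG_High (8.24), 143B_High (7.38), MNNG_Low (6.19) and 143B_Low (6.12). Neighbours in this order did not pass the test between lung and MNNG_High or between the Low groups, and MNNG_High and 143B_High did. 143B_High and MNNG_Low were not compared by a test, and their arrays did not overlap.

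On their brightest probe sets both receptors were lower in lung than in any other group. IGF1R read 4.80 and 4.71 on 225330_at, against 9.35 to 10.02 in MNNG_Low, a difference of -4.82 ± 0.20. Because both lung arrays lay under the filter of 5.36, that size is uncertain. 203628_at and 203627_at of IGF1R were lower too, by -2.53 ± 0.26 and -2.56 ± 0.24. On 208441_at the lung arrays read 6.02 and 5.47 and were called higher, by 0.69 ± 0.21 against MNNG_Low (adjusted p = 0.00529) and 0.49 ± 0.21 against MNNG_High (adjusted p = 0.0414). This probe set reached the filter on only 3 arrays, both lung arrays and 1 MNNG_High array. It thus entered the test only through groups where it is high, and its calls are given as a description. The untested 243358_at had its highest group mean in lung too, at 5.99 against 4.02 to 4.42. IGF2R read 6.28 and 5.65 on 201393_s_at, lower by -4.14 ± 0.20 than in MNNG_Low and by -3.79 ± 0.20 than in MNNG_High.

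Of the binding proteins with a single tested probe set, IGFBP2 read 6.85 and 6.37 and IGFBP6 7.72 and 7.17 in lung, below all bone tumor arrays of MNNG. IGFBP2 differed from MNNG_Low by -3.17 ± 0.26 and IGFBP6 by -1.69 ± 0.27. For IGFBP6 the value was -0.53 (adjusted p = 0.101) after a second quantile normalization. IGFBP4 read 7.03 and 7.50 in lung and differed by 0.17 ± 0.17 from MNNG_Low and 0.38 ± 0.17 from MNNG_High, neither called, but was called at 1.04 and 1.05 after a second quantile normalization. IGFBP3 was lower on both of its probe sets, with 6.70 and 6.92 on 210095_s_at and a difference of -3.40 ± 0.31 from MNNG_Low.

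**Figure D5:**
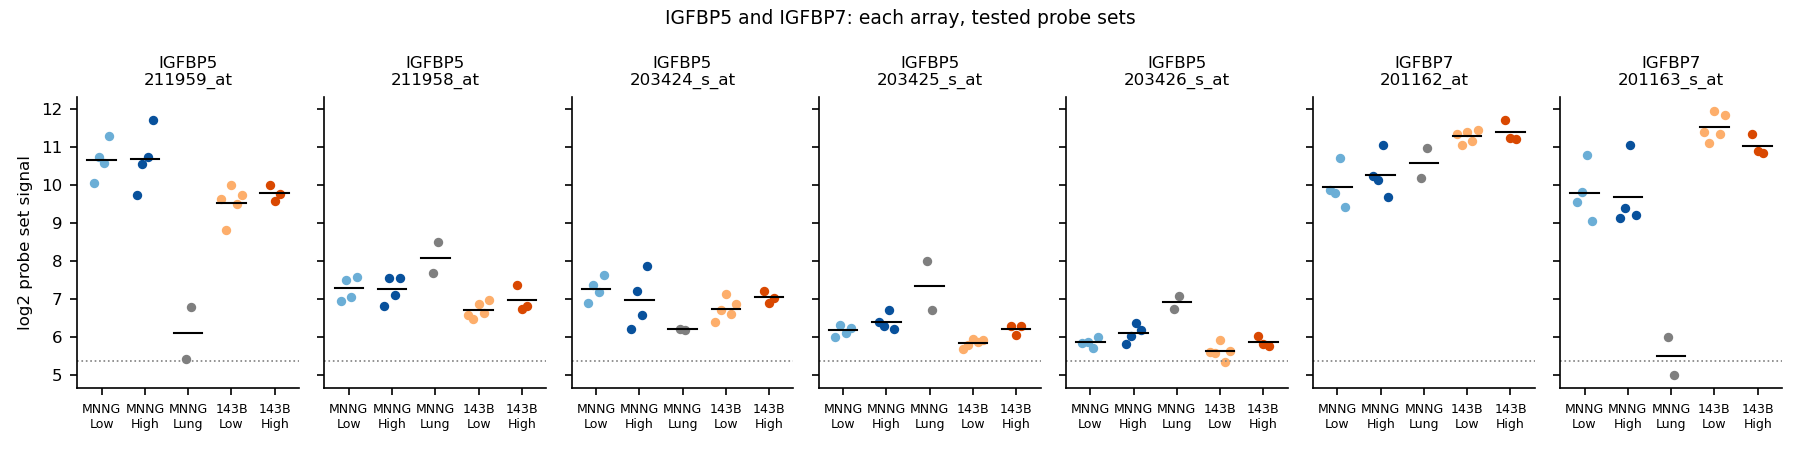
Log2 signal of the 5 tested IGFBP5 and 2 tested IGFBP7 probe sets on each array, by group, with 1 point per array, a line at each group mean and the low-signal filter of 5.36 dotted. In the lung arrays 211959_at falls to 5.42 and 6.79 while 211958_at, 203425_s_at and 203426_s_at stay above the means of the MNNG bone tumors, and IGFBP7 stays high on 201162_at but falls on 201163_s_at.

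IGFBP5 and IGFBP7 gave opposite answers in lung according to the probe set. For IGFBP5, 211959_at read 5.42 and 6.79 and was lower than MNNG_Low by -4.56 ± 0.45, and 203424_s_at was lower by -1.07 ± 0.33. The probe sets 203425_s_at, 203426_s_at and 211958_at were higher, by 1.18 ± 0.25, 1.05 ± 0.18 and 0.82 ± 0.27, all called. For IGFBP7, 201162_at read 10.19 and 10.98 in lung, a difference of 0.64 ± 0.34 (SE, adjusted p = 0.0852), whereas 201163_s_at read 6.01 and 5.00, a difference of -4.30 ± 0.48. IGF1R and IGFBP5 were the 2 of 6 member genes called in both directions, as were 26.4% of all genes with 2 or more tested probe sets. For IGF1R the higher call is that of 208441_at, which passed the filter only through lung and MNNG_High arrays. A gene-level direction in lung is therefore given for none of IGF1R, IGFBP5 and IGFBP7, and their calls stand for single probe sets.

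Genes that act around the axis were counted from lists drawn from textbook knowledge. Of the 5 other carriers and receptors (IGFBP1, IGFALS, IGFBPL1, INSR and INSRR), 1 was higher and 0 lower in MNNG High cells, the insulin receptor-related receptor INSRR by 0.59 ± 0.17. Over all genes 10.4% were called higher and 15.1% lower there. Between the lines, 2 of the 5 were higher and 1 lower in 143B_Low, where 14.1% of all genes were called in each direction. IGFBPL1, an IGFBP-like secreted protein, was higher by 1.20 ± 0.19 and INSR, the insulin receptor, by 0.83 ± 0.18, while IGFBP1, a binding protein regulated by insulin, was lower by -2.10 ± 0.45. In High cells the same 3 genes were called, at 1.47, 0.95 and -2.07, and INSRR was lower by -0.64, where 20.8% of all genes were higher and 13.9% lower.

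Of 10 tested IGFBP proteases and protease inhibitors, 1 was higher and 1 lower in MNNG High cells, against 10.4% of all genes higher and 15.1% lower. The serine protease KLK3 was higher by 0.79 ± 0.14 and the metalloprotease ADAM9 lower by -0.53 ± 0.17. In 143B_Low against MNNG_Low only ADAM9 was called, higher by 0.52 ± 0.16, against 14.1% of all genes in each direction. In High cells 3 were higher, among them STC1 (1.07 ± 0.19) and STC2 (0.79 ± 0.20), the stanniocalcins that inhibit pappalysin proteases, and 2 were lower, among them KLK3 (-0.87 ± 0.15). Over all genes 20.8% were higher and 13.9% lower between the lines in High cells.

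In the signalling chain below IGF1R, 0 of 10 tested receptor substrates and adaptors were higher and 2 lower in MNNG High cells, the ubiquitin ligase CBL by -0.57 ± 0.16 and the phosphatase PTPN11 by -0.59 ± 0.18. Of 24 tested genes of PI3K, AKT and mTOR, 2 were higher and 6 lower, with a median of -0.41. Over all genes 10.4% were higher and 15.1% lower, and the median of all tested probe sets was -0.19. MTOR, the kinase itself, was lower by -0.70 ± 0.14 and EIF4EBP1, a translation repressor it phosphorylates, by -0.75 ± 0.19, while the kinase GSK3A was higher by 0.55 ± 0.17 and RPTOR, the mTOR partner, by 0.39 ± 0.13. By limma, none of the 13 tested FOXO factors and targets, 8 growth hormone axis genes, 5 CCN proteins or 4 IGF2 mRNA-binding proteins and imprinted genes was called there, and 2, 2, 1 and 1 of them had an unadjusted p under 0.05. In 143B limma called no gene of any of these lists between High and Low cells, and an unadjusted p under 0.05 was found for 4 of 10 proteases and inhibitors, 2 of 8 growth hormone axis genes, 1 of 13 FOXO genes, 1 of 5 CCN proteins and 0 of the other lists.

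Between the lines the growth hormone axis, which drives IGF1 in liver and bone, had 4 of 8 genes higher and 1 lower in 143B_Low, and 5 higher and 1 lower in 143B_High. For these and the lists that follow, the shares over all genes were 14.1% in each direction in Low cells, and 20.8% higher and 13.9% lower in High cells. The growth hormone receptor GHR was higher by 2.77 ± 0.16 in Low and 2.73 ± 0.18 in High cells, from MNNG means of 3.87 and 3.67 that lie under the filter, so those sizes are uncertain. The feedback inhibitor SOCS2 was higher by 1.68 ± 0.28 and 2.01 ± 0.32, and SOCS3 lower by -2.02 ± 0.23 and -1.41 ± 0.26. JAK2, the receptor's kinase, was higher by 1.12 ± 0.21 in Low, and STAT5B, the factor it activates, by 1.02 ± 0.23 in High cells.

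Of the receptor substrates and adaptors, 4 of 10 were lower and 0 higher in 143B_Low. The adaptor SHC1 was lower by -2.09 ± 0.14 and the substrates IRS1 and IRS2 by -0.99 ± 0.23 and -0.42 ± 0.15, and SHC1 and IRS1 were lower in High cells too, by -2.04 ± 0.16 and -0.83 ± 0.26. Of the 24 PI3K, AKT and mTOR genes, 4 were higher and 4 lower in Low, and 6 higher and 3 lower in High cells. EIF4EBP1 was higher by 1.30 ± 0.18 and 1.98 ± 0.21 and the AKT phosphatase PHLPP1 by 1.14 ± 0.21 and 1.51 ± 0.24, and TSC1, an inhibitor of mTOR, was lower by -0.97 ± 0.13 and -0.70 ± 0.15.

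All 4 tested genes of the list of IGF2 mRNA-binding proteins and imprinted neighbours were higher in 143B_High, and 3 of 4 in 143B_Low. CDKN1C, an imprinted cell-cycle inhibitor near IGF2, was higher by 1.82 ± 0.19 in Low and 2.65 ± 0.21 in High cells, and IGF2BP2 by 1.27 ± 0.13 and 1.43 ± 0.15. IGF2BP1 was higher by 0.78 ± 0.15 and 0.90 ± 0.17, and IGF2BP3 by 1.56 ± 0.38 in High cells. Of the 13 tested FOXO factors and targets, 3 were higher and 1 lower in 143B_Low, with SESN3, a stress-response sestrin, at 2.38 ± 0.28 and PDK4, a metabolic kinase, at -1.73 ± 0.34. Of the 5 tested CCN proteins, secreted matrix proteins with an IGFBP-like domain, CCN5 was lower in both fractions, by -2.10 ± 0.24 and -2.17 ± 0.27.

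In lung, 8 of the 10 tested substrates and adaptors and 20 of the 24 PI3K, AKT and mTOR genes were lower than in MNNG_Low, and 1 and 2 of them higher. Over all genes 51.8% were called lower and 35% higher. IRS2 was lower by -4.08 ± 0.19 and PTPN11 by -5.20 ± 0.22. Of the 5 other carriers and receptors, 2 were higher and 1 lower. IGFALS, which joins IGF and IGFBP3 in the blood, was higher by 1.81 ± 0.23 and INSRR by 1.99 ± 0.21. Of the 10 tested proteases and inhibitors, 5 were higher and 4 lower. KLK3 was higher by 2.24 ± 0.18 and PAPPA2 by 2.34 ± 0.22, while ADAM9 was lower by -5.45 ± 0.21. Of the 5 tested CCN proteins, 1 was higher and 3 lower, with CCN2 lower by -5.33 ± 0.34 and CCN1 by -4.30 ± 0.34.

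The genes whose level ran most like each member over the 18 arrays were found among 14417 genes by Pearson's r, for members that span more than 2 log2 units. The arrays share group, line and signal spread, so r describes these arrays only. For IGF1R, IGF2R, IGFBP2, IGFBP3 and IGFBP5 the lung arrays lie below all others and set much of the span. For IGF1 the 3 most alike were AIF1 (r = 0.946), RNF5, a ubiquitin ligase (r = 0.935), and CDC42, a small GTPase (r = 0.932). For IGF1R they were SLC25A24, CHSY1 and ELOVL5, each at 0.993, and for IGF2R they were ITPRIPL2, GNA13 and SEC63, each at 0.996. IGFBP2 ran most like EIF3E (0.971), MRPS6 (0.965) and PRDX4 (0.965), and IGFBP3 most like TIMP3 (0.959), CMTM3 (0.959) and MYADM (0.959). IGFBP5 ran most like SLC6A6 (0.978), EMC2 (0.968) and ZNF395 (0.967), and IGFBP6 most like RRAD (0.944), GABARAP (0.942) and GDF15 (0.939). IGFBP7 ran most like RHOG (0.925), FXYD6 (0.912) and CYP11A1 (0.912).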

How the data were processed

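The 18 arrays are Affymetrix human 3′ expression arrays of total RNA. The authors deposited log2 signals per probe set. Per the submitters' processing notes these come from RMA, a method of background correction, quantile normalization across arrays and summary over probes. The RMA version and the arrays normalized as 1 batch are not stated. A shift shared by most genes is removed by such normalization. Array data have no read depth, and the number of arrays limits the precision.

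Probe sets were named from the platform annotation (1 gene for 41097, several for 1801, none for 11777), and symbols were compared through gene IDs with a RefSeq table on GRCh38.p14, which held 19735 of 19777 genes, with 0 differing. Promoter windows came from RefSeq and were sought for the 9 genes with member probe sets. Of these, 8 had a window and IGFBP7 had none. The members and gene lists were chosen with earlier results of these data known.

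Differences were fitted in R 4.3.3 with limma 3.58.1 over 26556 single-gene probe sets at or above 5.36 on at least 3 arrays, with a mean for each of 5 groups and Benjamini-Hochberg adjustment over all of them at 0.05. A value a ± b is a log2 difference with its standard error unless SD is given. Each of 14418 genes was read on its probe set of highest mean. The scripts were tested on simulated data. Named were all members, up to 4 called genes of smallest p per list and comparison, the 3 genes most alike to each member, and marker genes beside a result.

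Groups and tumor numbers come from the sample titles, and High and Low cells of a number come from 1 tumor. Deviations from group means correlated at 0.443, 0.355, 0.257 and 0.559 for the 4 MNNG pairs, and at 0.523 for 143B tumor 143B-1253. The pool 143B-51&52 was read as tumors 143B-1251 and 143B-1252 (-0.178 and 0.488) and 143B-54&55 as 143B-1254 and 143B-1255 (0.216 and 0.0708). Tumors are separate, but the fit took High and Low arrays of a tumor as independent unless tumor was a block. In the main fit p-values reflect spread between arrays within groups, shared over both lines, both fractions and the lung pair. That spread includes arrays of pooled tumors. Alternatives were a second quantile normalization, median centring, no filter, other probe set choices, array weights, covariates, blocks and leaving out arrays.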

Additional observations from a re-analysis of the deposited data

Results flagged for a closer look

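Of 81 sets of 4 or 5 arrays (a member probe set in a group), 7 had a highest or lowest array that stood apart from the others by more than Dixon's 95% limit, and chance gives about 1 in 20. Tumor MNNG-1233 stood apart in 3 of them. Its High array was at 11.05 for IGFBP7 on 201163_s_at, with the nearest other array at 9.39, and at 3.30 against 2.99 for IGF1 on 241072_s_at. Its Low array was at 3.18 against 2.88 for IGF1 on 209541_at. For IGFBP6, MNNG-1232 High was at 9.76 with the nearest at 9.12. For IGFBP5 on 1555997_s_at, MNNG-1235 Low was at 5.54 with the nearest at 4.80. In 143B_Low, tumor 143B-1253 was at 8.81 for IGFBP3 on 212143_s_at with the nearest at 7.89, and tumor 143B-1251 was lowest at 3.02 for IGF1 on 209541_at with the nearest at 3.12. The 3 IGF1 values here come from probe sets that lie under the filter on every array.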

How the results depend on the processing

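The count of called member genes between MNNG High and Low cells, 1 in the report, was 2 after median centring, 4 with array weights (IGF1, IGF1R, IGFBP2 and IGFBP3) and 4 with tumor as a replicate block (fitted without the lung arrays). It was 0 when the fit held the date tag, 0 among arrays of date tag 2 alone, 0 with the interquartile range as a covariate (chosen after seeing the data) and 0 without _x_at and _s_at probe sets, which removes both tested IGF1 probe sets. It ran from 1 to 3 with single arrays left out, the 3 coming without MNNG-1235 High. Over the whole array this comparison called 6777 probe sets, 2039 after a second quantile normalization, 2414 without MNNG-1231 High, 2779 without MNNG-1233 High and 10867 without MNNG-1235 High. In 143B the count of 0 became 1 (IGF1) with array weights and 1 with the replicate block, and stayed 0 with single arrays left out. Between lines in High cells, the count of 5 was 3 when only the groups compared were fitted, and 3 to 5 with single arrays left out (3 without MNNG-1232 High or either pooled 143B_High array). In Low cells it ran from 3 to 5 (3 without MNNG-1235 Low). For lung against MNNG_Low the count of 7 was 4 without _x_at and _s_at probe sets and 7 to 8 with single arrays left out, and against MNNG_High 6 to 7. Leaving out a lung array leaves 1, assumed to vary like the other groups. The test of the difference between lines gave 0 throughout. IGFBP7 in lung turned negative when all its probe sets were averaged, -1.16 against MNNG_Low and -1.26 against MNNG_High, where 201163_s_at enters. The block changed no other call of a brightest probe set than those given in the report and could not be fitted to comparisons between lines. Causes of these changes were not tested.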
